A study of Mus musculus with 6 samples.

Results

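The 10 genes described here build and load the MHC class I molecule: H2-K1, H2-D1, B2m, Tap1, Tap2, Tapbp, Psmb8, Psmb9, Psmb10 and Nlrc5. They were taken by symbol from a deposited table of 23412 gene rows, and all 10 had a row and passed the filter on low counts. The RNA came from mouse spleen B cells of the germinal centre, the structure in which B cells mutate and select their antibody genes, sorted as positive for B220, GL7 and Fas. All mice carried the Cg1-cre allele on 1 chromosome, which makes Cre recombinase in B cells that use the immunoglobulin gamma constant region, and all had been given sheep red blood cells 10 days before the sort. Control mice are labelled Cg1-cre(+/-), written with DAF-Tg(+/+) in the treatment protocol, and DAF-TM mice Cg1-cre(+/-);DAF-TM(fl/fl), with the floxed DAF-TM allele at R26 on both chromosomes. Age and sex are not given in the labels. DAF, the product of Cd55, limits complement activation on cell membranes. The labels name 3 samples a group, but replicate 3 of DAF-TM repeats replicate 2 in every row of the table. Their difference is thus below sampling noise, and the pair counts as 1 sample, named DAF-TM library 2. The comparison rests on 3 control and 2 DAF-TM libraries.

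Class I molecules show short peptides from inside the cell to CD8 T cells and natural killer cells. The proteasome cuts proteins into peptides, the TAP transporter carries these into the endoplasmic reticulum, and tapasin holds the empty class I molecule at the transporter until a peptide binds. Interferons raise most of these genes, partly through NLRC5, a nuclear protein that activates class I promoters. B cells carry class I molecules at rest and lymphoid cells use the immune forms of the proteasome subunits constitutively.

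How many mice gave each library is not in the labels, so p-values refer to libraries, and part of the spread between these may be technical. The p-values, SEs and intervals of single genes come from the edgeR fit. They lean mainly on the spread of other genes (3 residual and a median of 1153 prior degrees of freedom). A gene's own spread between these libraries thus counts for little in them. Library totals ran from 7257339 to 12783965 counts. Cd55 stood at 23.5 to 34.4 CPM, a count relative to its library's TMM-normalised total, in the controls and at 713 and 726 in the DAF-TM libraries. The 8 B cell markers checked, among them Cd79a and Cd79b, summed to between 9265 and 12050 CPM in every library, and the 8 germinal centre markers, among them Bcl6 and S1pr2, to between 3166 and 4097. DAF-TM library 1 held both female and male RNA: Xist, the RNA of the inactive X, was at 296 CPM and 4 Y-linked genes summed to 289. In the other libraries 1 of the 2 signals was below 3 CPM. Control library 1 and DAF-TM library 2 had Xist (759 and 720 CPM). Control libraries 2 and 3 had the Y-linked genes (708 and 478 CPM). The libraries of a group thus did not all come from the same mice. DAF-TM library 2 stood apart by expression level. Among the 4817 tested genes with a mean of at least 50 CPM, a minimum chosen after seeing the values and met by all 10 genes here, 66.9% were below every control in it, against 25.4% in DAF-TM library 1.

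Of the 10 genes 7 lie in the major histocompatibility region of chromosome 17 (GRCm38, GENCODE vM21 gene positions). In order they are Tapbp (33915899 to 33929292), H2-K1 (33996017 to 34000347), Psmb9 (34181987 to 34187764), Tap1 (34187553 to 34197225), Psmb8 (34197721 to 34201454), Tap2 (34203527 to 34216321) and H2-D1 (35262730 to 35267499). B2m lies on chromosome 2 (122147686 to 122153083). Nlrc5 (94434356 to 94527272) and Psmb10 (105935735 to 105938444) lie on chromosome 8. Class I genes resemble each other, so the longest coding transcript of each member was cut into all windows of 100 bases, the read length. For H2-K1, 0 of 1520 windows were identical to a transcript of another gene, and for H2-D1 93 of 2003, most of them in H2-Q1. Tap1 and Psmb9 start next to each other on opposite strands and share 212 exon bases, and 29.0% of the exon bases of Tapbp, 18.5% of those of Tap2 and 14.7% of those of Psmb8 lie in exons of another gene. The library kit does not mark strand, so reads from such shared exons cannot be told apart.

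The sequences below, from the RefSeq promoter table (GRCm38.p6), cover 250 bases before to 50 after the start site. They are shown because H2-K1, H2-D1 and B2m, the chains of the class I molecule, had 1 DAF-TM library well above all controls, and their promoters hold 1 uncommon arrangement of short sequences. Capitals mark TGACG and ATTGG where exactly 20 bases separate them, GGG with TTCCC 2 bases after it, an NF-kB type of sequence, AANNGAAA, the core bound by interferon regulatory factors, and GAAA with a second GAAA 2 bases after it, a longer form that contains the core. All were searched on both strands, and the letters were chosen after the sequences had been read.

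H2-K1, chr17:34000298-34000597, minus strand: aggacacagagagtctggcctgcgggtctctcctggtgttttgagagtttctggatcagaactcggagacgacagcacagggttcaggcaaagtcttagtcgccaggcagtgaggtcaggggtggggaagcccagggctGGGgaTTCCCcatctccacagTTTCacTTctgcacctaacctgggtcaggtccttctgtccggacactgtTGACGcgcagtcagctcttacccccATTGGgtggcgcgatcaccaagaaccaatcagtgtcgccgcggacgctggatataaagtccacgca
H2-D1, chr17:35262844-35263143, plus strand: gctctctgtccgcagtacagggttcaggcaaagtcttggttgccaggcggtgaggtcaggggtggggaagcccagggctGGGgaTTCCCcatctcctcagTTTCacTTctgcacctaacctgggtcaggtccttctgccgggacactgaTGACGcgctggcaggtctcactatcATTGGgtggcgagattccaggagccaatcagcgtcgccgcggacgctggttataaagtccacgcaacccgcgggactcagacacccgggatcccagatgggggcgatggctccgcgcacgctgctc
B2m, chr2:122147437-122147736, plus strand: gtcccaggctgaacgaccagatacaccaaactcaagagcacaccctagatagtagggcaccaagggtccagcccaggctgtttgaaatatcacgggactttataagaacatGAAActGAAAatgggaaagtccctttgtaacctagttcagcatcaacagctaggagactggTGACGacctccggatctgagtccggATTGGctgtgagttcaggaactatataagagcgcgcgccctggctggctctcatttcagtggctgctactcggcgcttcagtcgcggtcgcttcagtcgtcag

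The pair of TGACG and ATTGG stood in 3 of the 8 members with a promoter in the table, starting 41 bases before the start site in H2-K1, 101 before it in H2-D1 and 78 before it in B2m. Both are of the kind bound by the protein complex that NLRC5 joins at class I promoters. Over all 32544 different promoter windows of the table, 31 held the pair (0.0953%). With or without its partner, TGACG stood in 20.9% of the windows and ATTGG in 37.4%. Since the letters were chosen after the sequences had been read, these shares describe the pair and test nothing about the members. The NF-kB type stood in H2-K1 and H2-D1 and in 1.77% of all windows, AANNGAAA in H2-K1, H2-D1 and B2m and in 23.9%, and the longer form in B2m and in 3.45%. The pair's other genes included H2-M3, a nonclassical class I gene. Of the 27 genes with the pair, 24 were tested, H2-K1, H2-D1 and B2m among them. Their median log2 fold change between DAF-TM and control was -0.08, with 11 positive values. Of all 18767 genes tested 10110 were positive, and of the 4817 with a mean of at least 50 CPM 985 were. A match of letters does not show binding. The promoters of Nlrc5 and Tap2 are not shown.

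None of the 10 genes differed between the groups past the threshold, an edgeR p-value adjusted over all genes of under 0.05. The test called 0 of 10, against 77 of all 18767 genes tested (0.41%; 0.373% higher and 0.0373% lower), and DESeq2 and limma-voom also called 0 of 10. At an unadjusted p under 0.05, H2-K1 and Nlrc5 were higher, 2 of 10 against 3.68% of all genes, and 0 of 10 were lower, against 2.06%. The median log2 fold change of the 10 was 0.10, against 0.03 over all genes tested and -0.12 over the 4817 genes of at least 50 CPM. Of the 10, 7 were positive (5 with RLE factors or DESeq2), against 10110 of all 18767 genes and 985 of the 4817. Both DAF-TM libraries lay below every control for 1 of the 10, Psmb8, against 9.02% of all genes and 21.5% of those of at least 50 CPM. Both lay above every control for 0 of 10, against 11.3% and 1.02%.

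All 10 genes were higher in library 1 than in library 2, against 47.9% of all genes and 85.6% of those of at least 50 CPM. DAF-TM library 1 lay above every control for 7 of 10, against 24.5% of all genes and 22.5% of the abundant ones, and below every control for 1 of 10, against 23.2% and 25.4%. DAF-TM library 2 lay above every control for 0 of 10, against 33.6% and 1.33%, and below every control for 6 of 10, against 27.3% and 66.9%. Together the 10 genes took 5107, 5226 and 4996 CPM in the controls, 6485 in DAF-TM library 1 and 4654 in library 2. The sum of library 1 was thus the highest of the 5 and that of library 2 the lowest.

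**Figure D1:**
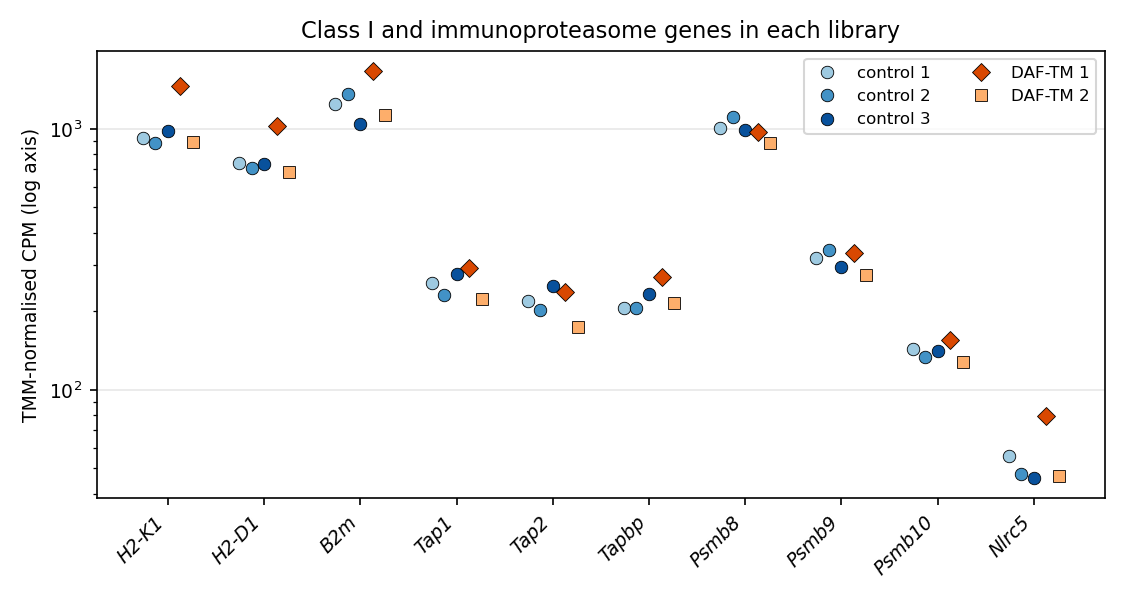
TMM-normalised CPM (vertical log axis) of each of the 10 genes in the 3 control libraries (circles) and DAF-TM libraries 1 (diamonds) and 2 (squares), 1 point a library. For H2-K1, H2-D1, B2m and Nlrc5 the diamond lies above all other points and the square among or below the controls.

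The class I chains were abundant in every library and reached their highest levels in DAF-TM library 1. H2-K1, a classical heavy chain that presents peptides, stood at 919, 884 and 980 CPM in control libraries 1 to 3 and at 1456 and 894 in DAF-TM libraries 1 and 2. DAF-TM library 1 was thus 1.57 times the control mean, and library 2 lay within the control range. The fitted log2 fold change was 0.34 (SE 0.16, 95% interval 0.02 to 0.66, unadjusted p = 0.038, adjusted p = 0.833). H2-D1, the other classical heavy chain, stood at 740, 710 and 732 CPM in the controls and at 1024 and 683 in DAF-TM libraries 1 and 2. The controls differed little (SD 15.5), DAF-TM library 1 was 1.41 times their mean and library 2 lay just below all of them. Its log2 fold change was 0.23 (SE 0.16, 95% interval -0.09 to 0.55, adjusted p = 0.945).

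B2m encodes beta-2 microglobulin, the light chain that every class I heavy chain needs to reach the surface. It stood at 1245, 1360 and 1048 CPM in the controls and at 1665 and 1132 in the DAF-TM libraries. The groups overlapped, since library 2 fell between the controls, and the log2 fold change was 0.20 (SE 0.16, adjusted p = 0.947). Summed, H2-K1, H2-D1 and B2m took 2760 to 2955 CPM in the controls, 4144 in DAF-TM library 1 and 2709 in library 2. Set against each other within a library, the chains gave overlapping ratios of counts, which were not divided by transcript length. The ratio of H2-D1 to H2-K1 counts was 0.805, 0.803 and 0.748 in the controls, against 0.703 and 0.763 with DAF-TM (exact permutation test, two-sided, p = 0.4). The ratio of H2-K1 to B2m was 0.738, 0.65 and 0.935 in the controls, against 0.874 and 0.79 with DAF-TM (exact permutation test, p = 0.6). In all, 5 such ratios were tested, and each adjusted p was 1. The permutation test used doubles the smaller tail, so with 3 against 2 libraries it cannot give a p below 0.2.

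Nlrc5, the activator of class I promoters, was the least abundant of the 10 and, like the heavy chains, highest in DAF-TM library 1. It stood at 55.7, 47.7 and 46 CPM in the controls and at 79.6 and 46.7 in the DAF-TM libraries, from 337 to 883 counts. DAF-TM library 1 was 1.60 times the control mean and library 2 was within the control range. The log2 fold change was 0.34 (SE 0.17, 95% interval 0.01 to 0.67, unadjusted p = 0.0446, adjusted p = 0.858). H2-K1, H2-D1, B2m and Nlrc5 were each at least 1.3 times the control mean in DAF-TM library 1, which held for 104 of the 4817 genes of at least 50 CPM (2.16%). That fold was chosen after their values were seen, and it describes 1 library.

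**Figure D2:**
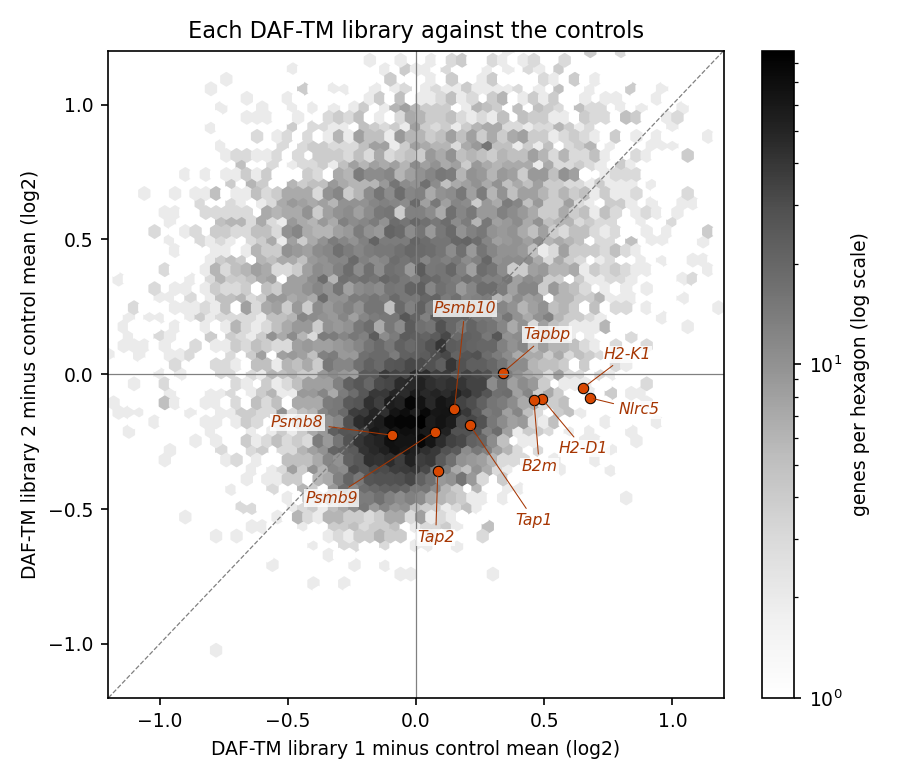
Difference in log2(CPM + 0.5) of DAF-TM library 1 (horizontal axis) and of DAF-TM library 2 (vertical axis) from the control mean, with the 10 genes as orange points over hexagons shaded by the number of tested genes, and a dashed line of equal difference. H2-K1, H2-D1, B2m and Nlrc5 lie at 0.46 to 0.68 on the horizontal axis and between -0.10 and -0.05 on the vertical one, while Psmb8, Psmb9 and Psmb10 lie in the dense part of the cloud.

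The peptide transporter and its docking protein showed the same order of the DAF-TM libraries with smaller steps. Tap1 and Tap2 form the transporter as a pair. Tap1 stood at 257, 230 and 277 CPM in the controls and at 294 and 223 in DAF-TM libraries 1 and 2, on either side of the control range. Its log2 fold change was 0.02 (SE 0.17, 95% interval -0.30 to 0.35, adjusted p = 0.993). Tap2 stood at 219, 202 and 250.5 CPM in the controls and at 237 and 174 in the DAF-TM libraries. Only library 2 left the control range, downward, and the log2 fold change was -0.13 (SE 0.17, adjusted p = 0.956). Tapbp, which encodes tapasin, stood at 205.5, 206 and 232 CPM in the controls and at 271 and 215 in the DAF-TM libraries. It was the only one of these 3 whose library 2 value lay within the control range, and its log2 fold change was 0.18 (SE 0.17, adjusted p = 0.949).

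The immunoproteasome subunits were the most even of the 10. Psmb8, the immune form of the chymotrypsin-like subunit, stood at 1004, 1107 and 994 CPM in the controls and at 969 and 884 in the DAF-TM libraries. The groups did not overlap, but the difference was small: a log2 fold change of -0.16 (SE 0.17, 95% interval -0.48 to 0.16, adjusted p = 0.949), near the -0.12 that was the median of genes of at least 50 CPM. Psmb9, the immune form of the caspase-like subunit, stood at 319, 343 and 296 CPM in the controls and at 336 and 275 in the DAF-TM libraries. Its log2 fold change was -0.07 (SE 0.17, adjusted p = 0.978). Psmb10, the immune form of the trypsin-like subunit, stood at 144, 134 and 140.4 CPM in the controls and at 155 and 127 in the DAF-TM libraries, with a log2 fold change of 0.02 (SE 0.17, adjusted p = 0.995). The 95% interval of Psmb9 ran from -0.39 to 0.26 and that of Psmb10 from -0.31 to 0.34.

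Each immune subunit takes the place of a constitutive one as the proteasome assembles, so each was set against its counterpart within the library, which removes the effect of library size. Psmb8 counts were 6.84, 7.31 and 6.92 times those of Psmb5 in the controls, against 6.71 and 7.49 times with DAF-TM (exact permutation test, two-sided, p = 1). The ratio of Psmb9 to Psmb6 was 1.06 in each control, against 1.204 and 1.04 with DAF-TM (exact permutation test, p = 0.8). The ratio of Psmb10 to Psmb7 was 0.826, 0.734 and 0.992 in the controls, against 1.001 and 0.884 with DAF-TM (exact permutation test, p = 0.4). In all 3 pairs the groups overlapped. Counts were not divided by transcript length, so the ratios compare libraries and do not give the relative level of 2 transcripts. The longest coding transcripts have 1628 bases for Psmb8 and 899 for Psmb5, and 1352 for Psmb9 and 798 for Psmb6. Those of Psmb10 and Psmb7 have 1311 and 1160. Psmb5, Psmb6 and Psmb7 themselves had log2 fold changes of -0.17, -0.15 and -0.15, each with an adjusted p of 0.949.

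**Figure D3:**
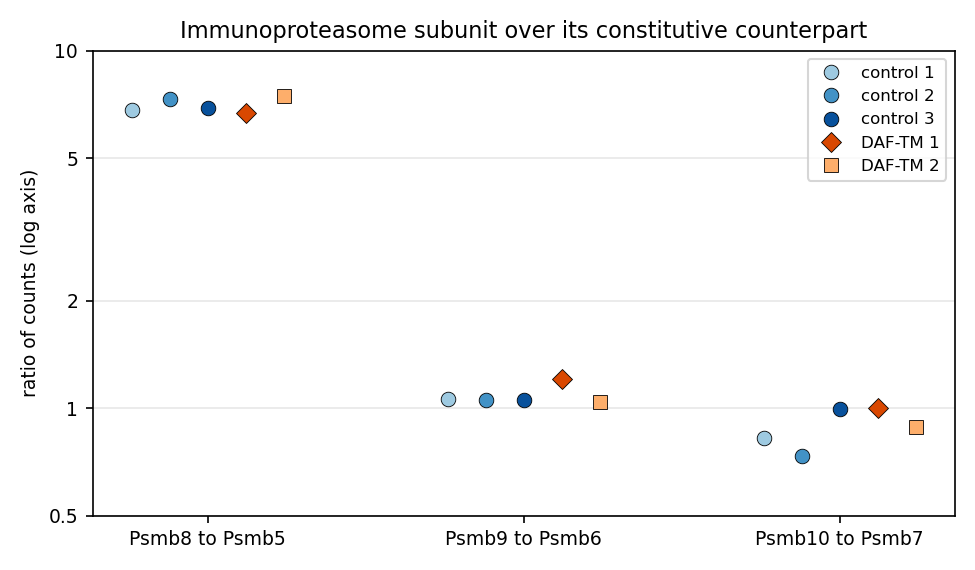
Ratio of the counts of each immunoproteasome subunit to those of the constitutive subunit it replaces (vertical log axis), 1 point a library, controls as circles and DAF-TM libraries 1 and 2 as diamonds and squares. Psmb8 counts were 6.71 to 7.49 times those of Psmb5 in all 5 libraries, and the remaining pairs lay between 0.734 and 1.204. Counts were not divided by transcript length.

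Levels of different genes can be compared per kilobase of transcript. In the controls B2m led at 1416 ± 183 CPM per kilobase (SD, n = 3), followed by Psmb8 at 636 ± 38.4 and H2-K1 at 573 ± 29.8. H2-D1 came next at 346 ± 7.37, then Psmb9 at 236 ± 17.3 and Psmb10 at 106 ± 3.61. Tap1 at 86.3 ± 7.99, Tapbp at 74.1 ± 5.23 and Tap2 at 65.0 ± 7.12 were close, and the control ranges of neighbours among them overlapped. Nlrc5 was last at 6.57 ± 0.686, and the fold from it to Tap2 was the widest step of the order, 9.90. Lengths were those of the longest coding transcript, and the annotation used for counting is not given in the sources used here. With the summed exon length of each gene in its place, H2-K1 passed Psmb8 (316 and 306 CPM per kilobase), and Tap2 and Tapbp passed Tap1.

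Leaving out 1 DAF-TM library turned most of the differences. Without library 1, 0 of the 10 genes had a positive log2 fold change, and their median was -0.12 in place of 0.10. H2-K1 then stood at -0.06 (adjusted p = 0.908), H2-D1 at -0.10 (0.843), B2m at -0.11 (0.826) and Nlrc5 at -0.10 (0.855). Without library 2, 9 of 10 were positive with a median of 0.27, and H2-K1 stood at 0.65 (adjusted p = 0.0853), Nlrc5 at 0.68, H2-D1 at 0.49 and B2m at 0.45. No member was called in either fit. In both fits the lone DAF-TM library was assumed to vary like the controls.

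**Figure D4:**
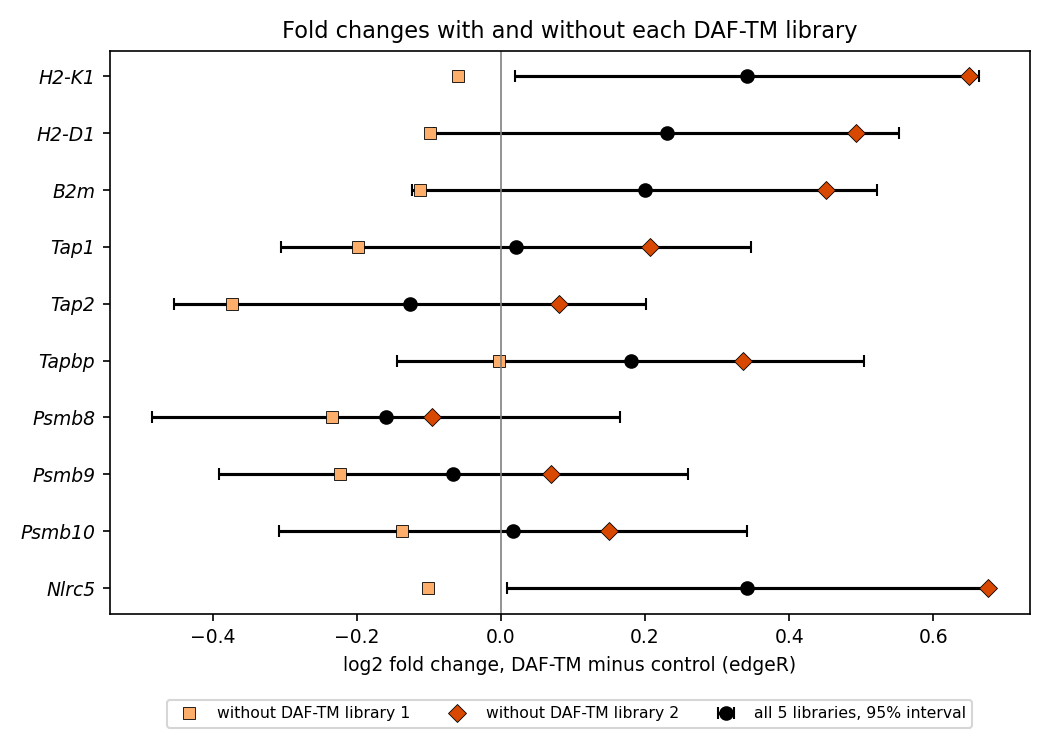
Log2 fold change of each gene, DAF-TM minus control (horizontal axis), with all 5 libraries (black circles, bars are 95% intervals from the edgeR fit), without DAF-TM library 1 (squares) and without DAF-TM library 2 (diamonds). Squares lie at or below 0 for all 10 genes and diamonds above 0 for all but Psmb8.

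Other class I genes were measured beside the members. Of 28 with a row, 18 passed the filter on low counts, and 1 rose and none fell. H2-Q5, which GENCODE vM21 lists as a polymorphic pseudogene, stood at 15.4, 12.8 and 13.9 CPM in the controls and at 33.4 and 15.9 in DAF-TM libraries 1 and 2. It rose 1.75-fold (log2 fold change 0.81, SE 0.21, adjusted p = 0.0385), and without DAF-TM library 1 its log2 value was 0.17 (adjusted p = 0.805). The call was also lost without each control (adjusted p from 0.0921 to 0.392) and with DESeq2 (0.682), limma-voom (0.399), RLE factors (0.0591), upper-quartile factors (0.196) and the replicate number as a block (0.478). The gene belongs to a family of near-identical copies, so its count is uncertain. H2-T23, which encodes the mouse counterpart of HLA-E, was the most abundant of these genes, at 347 ± 38.4 and 362 ± 36.7 CPM (SD, n = 3 and 2; log2 fold change 0.06, adjusted p = 0.982). H2-M3 followed at 155 ± 20.4 and 138 ± 22.6. Of the list, 4 genes (H2-Q6, H2-Q7, H2-Q9 and H2-T9) had 0 counts in every library, and how reads that match several copies were counted is not given in the sources used here.

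Cd1d1, which presents lipids to natural killer T cells, and Fcgrt, the neonatal Fc receptor, were named after their values were seen. Cd1d1 stood at 2.65, 4.93 and 3.68 CPM in the controls and at 11.2 and 6.51 in the DAF-TM libraries, with no overlap between the groups (log2 fold change 1.22, SE 0.34, adjusted p = 0.0819). Both DAF-TM libraries lay above every control for 11.3% of all genes. Fcgrt stood at 2.33, 3.06 and 1.77 and at 6.58 and 4.40 (log2 fold change 1.17, SE 0.40, adjusted p = 0.334). Neither passed the threshold. Both pair with beta-2 microglobulin, and both were far less abundant than the classical chains.

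None of the 12 genes for peptide loading and trimming passed (median log2 fold change -0.07), and at an unadjusted p under 0.05 only Lnpep, an aminopeptidase named after its value was seen, was lower (-0.37). The abundant chaperones Canx and Pdia3, which fold the heavy chain, stood at -0.24 and -0.02. Among the 11 proteasome partners none passed, nor did any at an unadjusted p under 0.05, and the median was -0.14. Psme3, a proteasome activator and the second most abundant of that list after Psmb6, stood at -0.16. DESeq2 and limma-voom called 0 in both lists.

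Among 17 regulators of class I transcription none passed the threshold (median -0.09), and 3 were higher at an unadjusted p under 0.05. DESeq2 and limma-voom called 0 as well, while upper-quartile factors called 1 of the 17 higher. Irf1, an interferon regulatory factor of class I promoters, stood at 73.4, 71.9 and 73.7 CPM in the controls and at 156 and 66.1 in DAF-TM libraries 1 and 2. DAF-TM library 1 was 2.13 times the control mean while library 2 lay below all controls (log2 fold change 0.60, SE 0.22, adjusted p = 0.67). Irf9, an interferon regulatory factor of the type I interferon response named after its values were seen, stood at 54.9, 46.7 and 43 and at 84.1 and 60.2, above every control in both DAF-TM libraries (0.58, SE 0.17, adjusted p = 0.104). That held for 11.3% of all genes and 1.02% of those of at least 50 CPM. Without DAF-TM library 2, 2 of the 17 passed, among them Irf1 at 1.09 (adjusted p = 7e-05), and without DAF-TM library 1 none did, with Irf1 at -0.15. Rfx5, the DNA-binding factor of the complex shared by class I and class II promoters, stood at -0.10, Irf8 at -0.09 and Ciita, the class II counterpart of Nlrc5, at -0.13. Of 9 interferon receptor and signalling genes none passed, nor did any at an unadjusted p under 0.05, nor with DESeq2 or limma-voom (median -0.03; Jak1 at 0.05 and Ifngr1 at -0.13).

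Markers of cells outside the sort were read in the same libraries, since nearly all nucleated cells use class I genes. The 12 natural killer cell markers summed to 38.0 to 57.6 CPM in the controls, 144.5 in DAF-TM library 1 and 86.9 in library 2. Of them 8 rose (Ncr1, Klrb1c, Klrd1, Klrk1, Nkg7, Gzma, Il2rb and Ctsw). This fell to 5 with limma-voom, 3 with upper-quartile factors, 2 with DESeq2 and 2 with the replicate block, and to 3 to 6 when a control was left out. DESeq2 gave no adjusted p for 2 of these 12 markers. It gave none either for 1 of 14 macrophage and monocyte, 2 of 14 T cell and 3 of 10 dendritic cell markers. The 14 macrophage and monocyte markers summed to 103 to 170 CPM in the controls, to 222 in DAF-TM library 1 and to 133 in library 2. Lyz2 was the most abundant of them and had a negative log2 fold change (-0.65, adjusted p = 0.92). It stood at 95.65, 45.1 and 71.1 CPM in the controls and at 57.4 and 32.65 with DAF-TM. Leaving it out was a step chosen after its values were seen. The sums were then 57.9 to 74.0 CPM in the controls and 164 and 100.1 with DAF-TM, above every control in both. Of the 14 markers, Csf1r, C1qb, Vcam1 and Slc40a1 rose (4 of 14, against 2 with DESeq2, upper-quartile factors or without control library 3). Without control library 2, 1 of the 14 was called lower. The 14 T cell markers summed to 301 to 329 CPM in the controls and to 303 and 316, most of it from Lck. Lck was lower in both DAF-TM libraries than in every control (log2 fold change -0.26, adjusted p = 0.945). Without Lck, likewise chosen after its values were seen, the sums were 43.6 to 56.7 CPM in the controls and 89.8 and 92.3 with DAF-TM. Of the 14 markers, 10 were higher in both DAF-TM libraries than in every control, against 11.3% of all genes. Cd3d and Tcf7 rose, and neither did with DESeq2, upper-quartile factors, the replicate block or without control library 1 or 2. Siglech rose among 10 dendritic cell markers, which summed to 90.3 to 94.5 CPM in the controls and to 116 and 101, a call lost without control library 1. Prdm1 rose among 7 plasma cell markers, which summed to 3139 to 5152 CPM in the controls and to 4145 and 3099 with DAF-TM. Prdm1 was not called with DESeq2, limma-voom, upper-quartile factors, the replicate block or without control library 1 or 3. Of the 7 markers, 5 lay above every control in DAF-TM library 1 (24.5% of all genes did) and 2 in library 2 (33.6%). Without DAF-TM library 1 none of the markers of any list was called. No natural killer cell, macrophage, T cell or dendritic cell marker was at 0 in every library. None of 9 neutrophil markers passed (4 were lower with the replicate block, 1 with RLE factors, 1 without the filter and 1 to 2 when a control was left out), with sums of 75.3 to 222 CPM in the controls, 24.9 in DAF-TM library 1 and 69.2 in library 2, and none of 7 erythroid and platelet markers. DAF-TM library 1, with the highest class I chains, thus also had the highest natural killer and macrophage sums and RNA of both sexes, while the summed T cell markers other than Lck were higher than in every control in both DAF-TM libraries, and the part of these in the class I values was not tested. In these bulk samples more cells of a type and more RNA per cell cannot be told apart.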

How the data were processed

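Raw whole-number counts for each gene symbol, without normalization, were deposited by the authors. The submitters' processing notes name bcl2fastq, HISAT2 and featureCounts and no versions, and the build in the file header is mm10 (GRCm38). Annotation, strand setting and handling of multiple matches: not given in the sources used here. Libraries were made with an oligo-dT kit (SMART-Seq v4) without molecular identifiers, per the labels' protocols. Columns were mapped to samples by name. The planned fit held 6 samples, and 5 remained because 2 columns were identical.

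Genes were tested with edgeR 4.0.16 (R 4.3.3): TMM factors, filterByExpr, robust glmQLFit, two-sided glmQLFTest and Benjamini-Hochberg adjustment over 18767 genes, which gives every adjusted p unless another tool is named. The SE is the log2 fold change divided by the root of the F statistic. The spread of a gene leaned mainly on other genes (3 residual and a median of 1153 prior degrees of freedom). Differences of single libraries used a pseudocount of 0.5 CPM, and ratios of 0.5 counts. The procedure was tested on simulated data.

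The members and lists were chosen with earlier results of these data known. All 10 members are named. From each list of pathway genes the called ones and the 2 most abundant are named, with Psmb5, Psmb6, Psmb7, Irf1, Rfx5 and Ciita; 1 further regulator of that rule is not reported here. Of 180 list entries 178 matched a row, 3 through older symbols. Promoter letters, the 50 CPM minimum and the 1.3-fold limit were chosen after the data were seen. Alternatives were RLE factors, upper-quartile factors, testing without the low-count filter, a filter at 1 CPM (3 libraries), DESeq2 1.42.0, limma-voom (limma 3.58.1), a replicate block, other pseudocounts and leaving out each library.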

Additional observations from a re-analysis of the deposited data

How the results depend on the processing

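Over 12 alternatives none of the 10 genes was called (lowest adjusted p = 0.0853), and 16 of the 120 fold changes changed sign. Tap1 stood at -0.002 with RLE factors and -0.0019 with DESeq2, Psmb10 at -0.0074 and -0.0075, and Psmb9 at 0.0023 and Pdia3 at 0.05 with upper-quartile factors, which moved the median of all genes from 0.03 to 0.10. When 1 library was left out, log2 values ran from -0.0596 to 0.65 for H2-K1, -0.10 to 0.49 for H2-D1, -0.11 to 0.45 for B2m, -0.20 to 0.21 for Tap1, -0.37 to 0.0799 for Tap2, -0.0028 to 0.34 for Tapbp, -0.22 to 0.0701 for Psmb9, -0.14 to 0.15 for Psmb10 and -0.10 to 0.68 for Nlrc5. They ran from -0.0554 to 0.16 for H2-T23, -0.23 to 0.17 for Pdia3, -0.15 to 1.09 for Irf1, -0.21 to 0.0083 for Irf8, -0.31 to 0.0832 for Rfx5, -0.32 to 0.0386 for Ifngr1 and -0.16 to 0.22 for Jak1. The log2 difference of the Psmb8 to Psmb5 ratio ran from -0.0661 to 0.0941 and that of the Psmb9 to Psmb6 ratio from -0.0276 to 0.19.

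Over all genes the 70 higher and 7 lower calls became 39 and 0 with upper-quartile factors, 28 and 0 with DESeq2 and 45 and 16 with the replicate block. Lower calls were 11 with RLE factors, 11 without the filter and 2 with limma-voom. Leaving out 1 library gave 12 to 107 higher and 2 to 16 lower calls, the fewest of both without DAF-TM library 1. The labels tie the shared replicate numbers to no litter or day. Same-numbered libraries did not deviate together from their group means (correlations across genes of -0.128 and -0.254). With 2 DAF-TM libraries the deviations of 1 mirror those of the other, so these values are a weak check on pairing. With the block H2-K1 stood at 0.34, Nlrc5 at 0.24 and B2m at 0.08, and no member was called. The cause of these changes was not tested.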
